A study of Rattus norvegicus with 5 samples.

Results

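The neural cell adhesion molecules described here are 9 genes: the L1 family members L1cam, Nrcam and Nfasc, the related receptor Ncam1, the membrane-anchored proteins Cntn1, Cntn2 and Thy1, and the synaptic partners Nrxn3 and Nlgn1. They were chosen by name, and every probe set whose annotation gives exactly 1 gene symbol equal to a member was taken, whatever its values. This gave 13 of the 8799 probe sets on the array, 1 to 3 for each gene, or 9 of the 4736 genes named by probe sets with a single symbol. Transcript levels were measured in total RNA of rat hippocampus at an age labelled P5, on 5 single-colour arrays. Of these, 2 came from fetal alcohol exposed rats, 1 from rats on an isocaloric diet, which matches calories without alcohol, and 2 from rats on a control diet. The labels give no strain, sex, alcohol dose or time of exposure, and give each sample neither as 1 animal nor as a pool, so p-values measure only the spread between these samples, which may be technical.

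Cell adhesion molecules of this kind sit on the surface of growing axons and dendrites. L1cam, Ncam1 and their relatives bind copies of themselves or other adhesion molecules on neighbouring membranes and link to the ankyrin and spectrin skeleton inside the cell, which steers axon growth, bundling of axons and neuron migration. Neurexins on the axon bind neuroligins on the dendrite and help to align the sides of a synapse. L1 is known from cell culture work as a target of ethanol, which inhibits adhesion mediated by the L1 protein. The arrays measure transcript levels, not protein or adhesion.

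Intensities are given in array units on a linear scale, as deposited. Log2 differences are on the scale of log2(intensity + 10.6), which understates the change of dim probe sets. The median intensity was 49.0 and 55.7 with fetal alcohol, 51.6 with the isocaloric diet, and 53.3 and 54.7 with the control diet. The neuron marker list had 25 tested probe sets, 9 higher and 16 lower after fetal alcohol than on control diet, with a summed intensity of 17368 and 17808 with fetal alcohol, 15687 with the isocaloric diet, and 18929 and 17828 with the control diet. Choroid plexus markers had a summed intensity of 5126 and 2100 with fetal alcohol, 15019 with the isocaloric diet, and 14504 and 14777 with the control diet, with lower means after fetal alcohol than on control diet at 14 of 15 tested probe sets. Myelin markers summed to 1108 and 1004 with fetal alcohol, 908 with the isocaloric diet, and 1052 and 1060 with the control diet. Astrocyte markers summed to 12219 and 12084 with fetal alcohol, 14357 with the isocaloric diet, and 13223 and 13405 with the control diet. Meninges markers summed to 10541 and 5534 with fetal alcohol, 8742 with the isocaloric diet, and 9264 and 13455 with the control diet. Of the 31 tested meninges probe sets 29 had lower means after fetal alcohol than on control diet, against 2594 of all 5244 tested. Igf2 and Igfbp2 are in both the choroid plexus and the meninges lists, so these counts are not independent. Vim is in both the meninges and the astrocyte lists. Much of the choroid plexus sum without alcohol came from Ttr. Its probe set rc_AA945169_g_at measured 1276 and 19.3 with fetal alcohol, 5745 with the isocaloric diet, and 6228 and 5728 with the control diet. The fetal alcohol values were wholly below at 10 (32.3%) and wholly above at 1 (3.23%), against 17.7% and 16.8% of all tested. The markers used here place the samples in brain tissue and do not tell the labelled hippocampus from other regions. In whole tissue, fewer cells of a type and less RNA per cell cannot be told apart, and the part of such differences in the values below was not tested.

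L1cam, the founding member of its family and an X-linked gene in mammals, had nearly the same level in the fetal alcohol and control diet groups. Its probe set X59149_at measured 777 and 669 with fetal alcohol, 637 with the isocaloric diet, and 785 and 703 with the control diet. The fetal alcohol values overlapped the control diet values, and the isocaloric array was the lowest of the 5. The mean was 723 ± 76.2 in fetal alcohol samples and 744 ± 58.1 in control diet samples (SD, n = 2 each), so the difference was smaller than the spread within either group. The log2 difference of fetal alcohol from control diet was -0.042 ± 0.22 (SE), with a 95% interval of -0.55 to 0.46, or 0.683 to 1.38 times the control diet level. The arrays therefore bound the L1cam difference to this range and do not show equality. The sign turned without fetal alcohol array 2, to 0.064, without control diet array 1, to 0.036, and with all columns scaled to equal medians, to 0.0012.

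Nrcam and Nfasc, the other L1 family members on the array, bind ankyrin and gather at axon initial segments and nodes of Ranvier. Nrcam measured 181 and 298 with fetal alcohol, 238 with the isocaloric diet, and 217 and 212 with the control diet. The fetal alcohol arrays thus lay on either side of both control diet arrays, and the mean difference was 0.11 ± 0.28. Without fetal alcohol array 1 the Nrcam difference was 0.46, and without array 2 it was -0.24, so its direction rested on which array was kept. For Nfasc, probe set L11002_at measured 50.5 and 65.8 with fetal alcohol, 61.7 with the isocaloric diet, and 72.4 and 68.8 with the control diet. Both fetal alcohol values and the isocaloric value were below the control diet values, with a log2 difference of fetal alcohol from control diet of -0.25 ± 0.24 that was about as large as its error. Without fetal alcohol array 1 it was -0.087 and without array 2 it was -0.41. The other Nfasc probe sets were dim and did not pass the intensity filter. U81035_s_at measured 20.5 and 21.3 with fetal alcohol, 15.8 with the isocaloric diet, and 20.5 and 28.5 with the control diet. U81036_s_at measured 18.6 and 21.4 with fetal alcohol, 14.4 with the isocaloric diet, and 18.7 and 9.0 with the control diet. At both, the fetal alcohol and control diet values overlapped, and the fit without a filter gave differences of -0.15 ± 0.22 and 0.35 ± 0.25 from control diet, in that order.

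Ncam1, the adhesion molecule that carries polysialic acid in the developing brain, was read by 2 bright probe sets that did not tell the same story. Probe set rc_AI137246_s_at measured 183 and 338 with fetal alcohol, 273 with the isocaloric diet, and 421 and 354 with the control diet. Fetal alcohol and isocaloric values were all below the control diet values, and the lowest was fetal alcohol array 1. The log2 difference of fetal alcohol from control diet was -0.61 ± 0.31 (limma adjusted p = 0.911 over all tested probe sets), and it was -1.04 without fetal alcohol array 2 and -0.19 without array 1. Probe set X06564_at measured 496 and 384 with fetal alcohol, 523 with the isocaloric diet, and 516 and 423 with the control diet. Here the groups overlapped, and the difference was -0.096 ± 0.25, which turned to 0.084 without fetal alcohol array 2 and to 0.043 without control diet array 1. The lower signal of the first probe set was therefore not seen at the second, and the difference between the probe sets was not tested.

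Thy1, a small immunoglobulin-like protein held in the neuronal membrane by a lipid anchor and, in rats, also present on thymocytes, was the one gene of the 9 whose fetal alcohol values exceeded those of both diets without alcohol at each of its probe sets. Probe set rc_AA874848_s_at measured 1622 and 1185 with fetal alcohol, 786 with the isocaloric diet, and 752 and 755 with the control diet. Probe set X02002_at measured 361 and 305 with fetal alcohol, 223 with the isocaloric diet, and 278 and 263 with the control diet. At both, the 2 fetal alcohol arrays stood above the other 3, as did 8.45% of the 5244 tested probe sets. The log2 difference from control diet was 0.87 ± 0.23 at the first probe set, 1.83-fold with a 95% interval of 1.27 to 2.64. Its limma p of 0.00520 was rank 46 of all tested probe sets, and the adjusted p of 0.573 did not pass the threshold of 0.05. Against the isocaloric array it was 0.81 ± 0.28 (limma adjusted p = 0.998). At the second probe set the difference was 0.28 ± 0.23 from control diet and 0.55 ± 0.29 from the isocaloric array. At the first probe set the difference from control diet was 0.65 without fetal alcohol array 1 and 1.1 without array 2. It stayed positive in all 13 alternatives run. A fit without 1 fetal alcohol array takes its spread from the control diet pair alone, which was nearly equal at this probe set (752 and 755). At the second probe set it was 0.16 without fetal alcohol array 1 and 0.40 without array 2.

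Markers of lymphocytes, other cells that can carry Thy1 in rats, summed to 585 and 576 with fetal alcohol, 579 with the isocaloric diet, and 602 and 658 with the control diet. Of their 15 probe sets, 5 were bright enough to be tested, those of Ptprc, Cd37, Cd4, Cd8b and Lck. Of these, 1 had a higher mean after fetal alcohol than on control diet. Lck measured 210 and 168 with fetal alcohol, 217 with the isocaloric diet, and 194 and 197 with the control diet. Only for Cd2 and Cd8a was every probe set under the offset of 10.6 on all 5 arrays. The lymphocyte sum was lower on both fetal alcohol arrays than on both control diet arrays, and the isocaloric value lay between those of the fetal alcohol arrays. The neuron sum given above was higher on both fetal alcohol arrays than on the isocaloric array. It was lower than on both control diet arrays, though nearly tied between array 2 of each group (17808 with fetal alcohol, 17828 with control diet). Against control diet, fetal alcohol values lay wholly above at 3 of 25 neuron probe sets (12%) and wholly below at 7 (28%). Of all tested probe sets 16.8% and 17.7% did so. There 0 neuron probe sets were higher and 1 lower (4%) at an unadjusted limma p under 0.05, against 1.66% and 3.95%. Against the isocaloric array 18 of 25 neuron probe sets were higher, as were 49.7% of all tested probe sets. At an unadjusted limma p under 0.05, 3 were higher (12%) and 0 lower, against 2.67% and 1.54% of all tested. This comparison rests on 1 isocaloric array. The part of neuron content in the Thy1 values was not tested.

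Contactins are adhesion molecules attached to the membrane by a lipid anchor, which bind L1 family members in the same or a facing membrane. Cntn1 measured 103 and 253 with fetal alcohol, 235 with the isocaloric diet, and 163 and 167 with the control diet. Fetal alcohol array 1 was the lowest of all and array 2 the highest, while the control diet arrays were almost equal. The mean difference from control diet, -0.021 ± 0.37, hid 2 opposite values: 0.58 without fetal alcohol array 1 and -0.63 without array 2. With columns at equal medians it was 0.018. Cntn2, also called TAG-1, an axonal surface protein of early growing axons, measured 188 and 152 with fetal alcohol, 168 with the isocaloric diet, and 175 and 178 with the control diet. Its range over the 5 arrays, 0.29 on the log2 scale, was the narrowest of the 11 tested probe sets, and that of Cntn1, 1.21, the widest. The log2 difference of fetal alcohol from control diet was -0.062 ± 0.23 for Cntn2, with a 95% interval of -0.60 to 0.47, and 0.083 without fetal alcohol array 2.

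The start regions of this pair, the widest and the narrowest in range, are shown as listed by RefSeq on build GRCr8, from 250 bases before to 50 bases after a start, with each CG dinucleotide in capitals. The Cntn1 window is chr7:125252060-125252359 on the + strand and the Cntn2 window chr13:46527976-46528275 on the - strand.
Cntn1: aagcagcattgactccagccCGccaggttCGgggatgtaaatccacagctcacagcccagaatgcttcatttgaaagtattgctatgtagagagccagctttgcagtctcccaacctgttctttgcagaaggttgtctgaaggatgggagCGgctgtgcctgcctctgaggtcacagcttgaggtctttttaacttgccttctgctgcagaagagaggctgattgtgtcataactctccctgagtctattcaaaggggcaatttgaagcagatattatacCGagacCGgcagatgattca
Cntn2: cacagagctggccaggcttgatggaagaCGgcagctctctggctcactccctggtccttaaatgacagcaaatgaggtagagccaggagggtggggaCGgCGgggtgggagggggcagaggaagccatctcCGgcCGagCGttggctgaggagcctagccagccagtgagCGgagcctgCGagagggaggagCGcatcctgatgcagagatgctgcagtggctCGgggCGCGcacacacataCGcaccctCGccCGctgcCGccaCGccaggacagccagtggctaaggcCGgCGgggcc
The Cntn1 window held 5 CG dinucleotides and 49.0% G or C, and the Cntn2 window held 19 and 67.0%. Of the 33469 windows in the table, 62.0% held at least 5 and 25.7% held at least 19, with a median of 7. A window was found for 4 of the 9 members, Nlgn1, Cntn1, Cntn2 and Nfasc. These letters are a description of the genes and the arrays did not measure promoter activity. On this assembly Cntn2 and Nfasc are direct neighbours among protein-coding genes. The neighbours did not share a pattern across the arrays: Nfasc L11002_at had both fetal alcohol values below the control diet values, and those of Cntn2 lay on either side of them.

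Nrxn3, a presynaptic neurexin, measured 97.2 and 116 with fetal alcohol, 92.3 with the isocaloric diet, and 125 and 98.7 with the control diet. The groups overlapped, with a log2 difference of fetal alcohol from control diet of -0.061 ± 0.24. Its direction turned without control diet array 1, to 0.095, and without fetal alcohol array 1, to 0.053. Nlgn1, a postsynaptic neuroligin of excitatory synapses, measured 35.4 and 43.4 with fetal alcohol, 48.7 with the isocaloric diet, and 49.2 and 44.6 with the control diet. Both fetal alcohol values were below the other 3, by a narrow margin on array 2, as in 8.3% of all tested probe sets. The difference from control diet was -0.21 ± 0.24, no larger than its error, with -0.090 without fetal alcohol array 1 and -0.32 without array 2. Mean Nlgn1 intensities, 39.4 ± 5.65 with fetal alcohol and 46.9 ± 3.22 with the control diet (SD, n = 2 each), were further apart than either SD, and limma gave an adjusted p of 0.965.

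**Figure D1:**
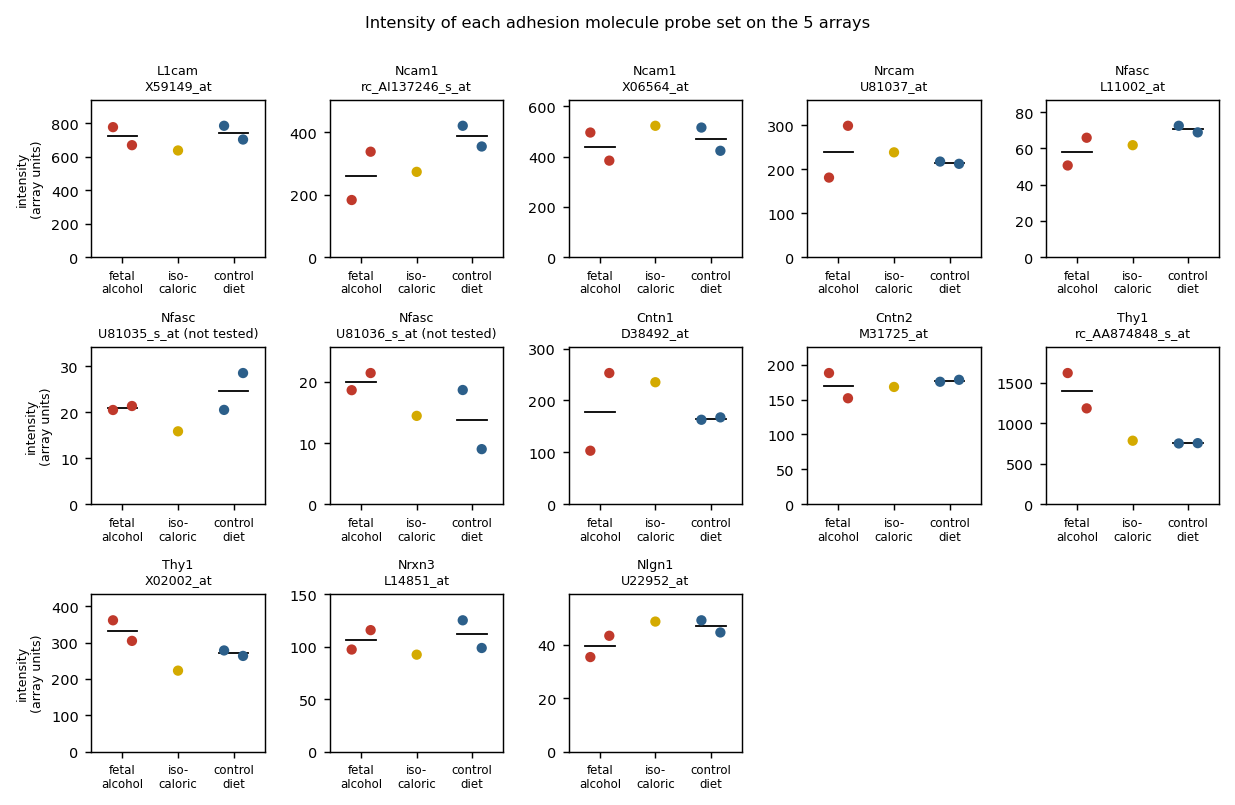
Intensity in array units, on axes that start at 0, of each of the 13 probe sets, with fetal alcohol at the left, isocaloric diet in the middle and control diet at the right; each point is 1 array and each black line the mean of a group. Thy1 rc_AA874848_s_at measured 1622 and 1185 on the fetal alcohol arrays, above the other 3, and the fetal alcohol arrays of Cntn1, at 103 and 253, lay on either side of the rest.

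Set against rats on control diet, fetal alcohol exposed rats show which hippocampal transcripts go with the exposure and its diet together. Of the 13 probe sets, 11 passed the filter on mean intensity and were tested, and 0 passed an adjusted p of 0.05, as did 0% of all 5244. At an unadjusted p under 0.05 there was 1 member, Thy1 rc_AA874848_s_at, against 5.61% of all tested probe sets. The fetal alcohol values lay wholly above the control diet values at 2 of 11 members, both of them Thy1, against 16.8% of all tested probe sets. They lay wholly below at 3 of 11, namely Ncam1 rc_AI137246_s_at, Nfasc L11002_at and Nlgn1, against 17.7%. In either direction there were 5 of 11, against 34.5%. The median log2 difference was -0.061 over the 11 and 0.0049 over all tested probe sets. Without control diet array 1 the median over the members was 0.036, so its sign rested on 1 array, and without fetal alcohol array 2 it was -0.18. The 95% interval of a member reached a median of 0.55 to either side on the log2 scale, which is the size of difference these arrays could bound.

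The comparison of fetal alcohol with the isocaloric diet asked how exposure compares with the feeding control, and rests on 1 isocaloric array with no replicate check. It shares the fetal alcohol arrays with the comparison above. No member passed, as none of all tested probe sets did (0%), and 1 member, again Thy1 rc_AA874848_s_at, had an unadjusted limma p under 0.05, against 4.21%. Both fetal alcohol arrays lay above the isocaloric array at 4 of 11 members, L1cam, both Thy1 probe sets and Nrxn3, against 31.5% of all tested probe sets. L1cam differed from the isocaloric array by 0.18 ± 0.27 and Nrxn3 by 0.18 ± 0.29, each smaller than its error. Both lay below it at 2 of 11, Ncam1 X06564_at with -0.25 ± 0.30 and Nlgn1 with -0.25 ± 0.29, against 28.4%. Cntn1 had the largest negative value, -0.51 ± 0.46, which became 0.10 without fetal alcohol array 1. Ncam1 rc_AI137246_s_at had -0.13 ± 0.38, Nrcam -0.033 ± 0.35 and Nfasc L11002_at -0.082 ± 0.29, and without fetal alcohol array 1 they had 0.30, 0.31 and 0.080, in that order. Cntn2 had 0.0077 ± 0.29, which was -0.14 without fetal alcohol array 1 and also turned with quantile normalization, to -0.011, and with equal medians, to -0.0084.

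The comparison of isocaloric with control diet concerned the feeding control itself, and shares the control diet arrays with the first. No member passed (0% of all tested probe sets did), and at an unadjusted p under 0.05 there were 0 members, against 6.81%. The isocaloric array lay below both control diet arrays at 6 of 11 members and above both at 4 of 11, against 37.5% and 38.3% of all tested probe sets. The differences ran from -0.48 ± 0.38 for Ncam1 rc_AI137246_s_at to 0.48 ± 0.46 for Cntn1. L1cam had -0.22 ± 0.27, Nfasc L11002_at -0.17 ± 0.29 and Nrxn3 -0.24 ± 0.29. Thy1 had 0.059 ± 0.28 at rc_AA874848_s_at and -0.27 ± 0.29 at X02002_at. Ncam1 X06564_at had 0.16 ± 0.30, Nrcam 0.14 ± 0.35, Cntn2 -0.070 ± 0.29 and Nlgn1 0.046 ± 0.29, the last of which turned negative without control diet array 2.

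**Figure D2:**
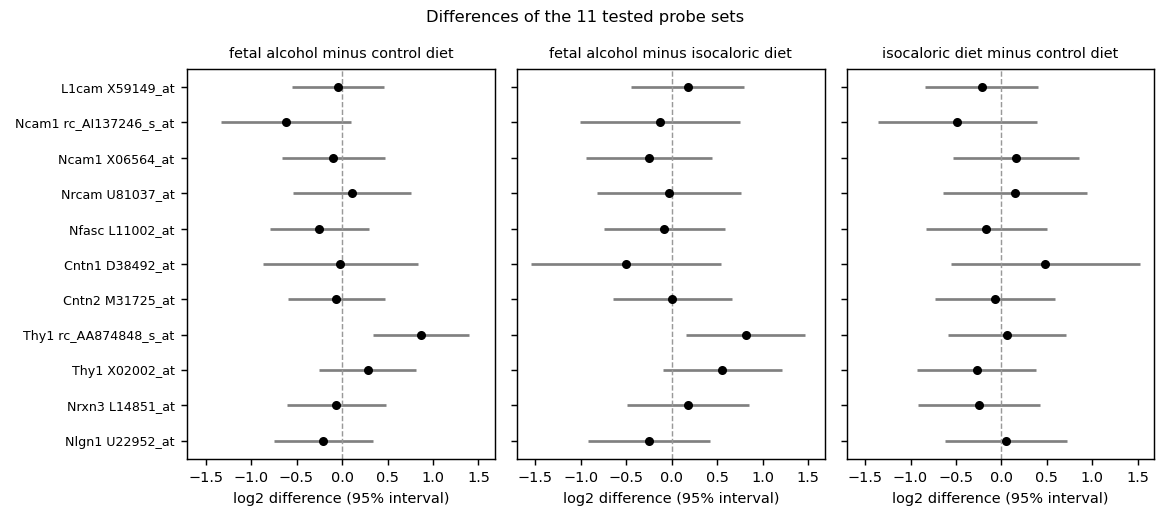
Log2 differences of the 11 tested probe sets in the 3 comparisons, fetal alcohol minus control diet, fetal alcohol minus isocaloric diet and isocaloric minus control diet; points are limma estimates and bars their 95% intervals, unadjusted for the number of probe sets. The interval of Thy1 rc_AA874848_s_at lay above 0 in both fetal alcohol comparisons (0.34 to 1.40 against control diet), and that of every other probe set included 0.

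Several members differed more between the fetal alcohol arrays than between groups. The gap of array 2 minus array 1 was 1.21 on the log2 scale for Cntn1, 0.85 for Ncam1 rc_AI137246_s_at and 0.69 for Nrcam, larger in size than in 96.9%, 90.9% and 85.4% of all tested probe sets or equal to them, in that order. In these 3, and in Nfasc L11002_at, Nrxn3 and Nlgn1, array 1 was the lower of the pair and lay below both control diet arrays. That made 6 of 11, against 40.2% of all tested probe sets. In L1cam, Ncam1 X06564_at, Cntn2 and both Thy1 probe sets array 1 was the higher of the pair. The median size of the fetal alcohol gap was 0.32 over the members and 0.30 over all tested probe sets, and that of the control diet gap was 0.077 over the members and 0.20 over all. The control diet arrays were thus closer to each other than the fetal alcohol arrays, in the members as in the whole table. The fetal alcohol arrays lay on opposite sides of both control diet arrays at 3 of 11 members, Nrcam, Cntn1 and Cntn2, against 24.6% of all tested probe sets.

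**Figure D3:**
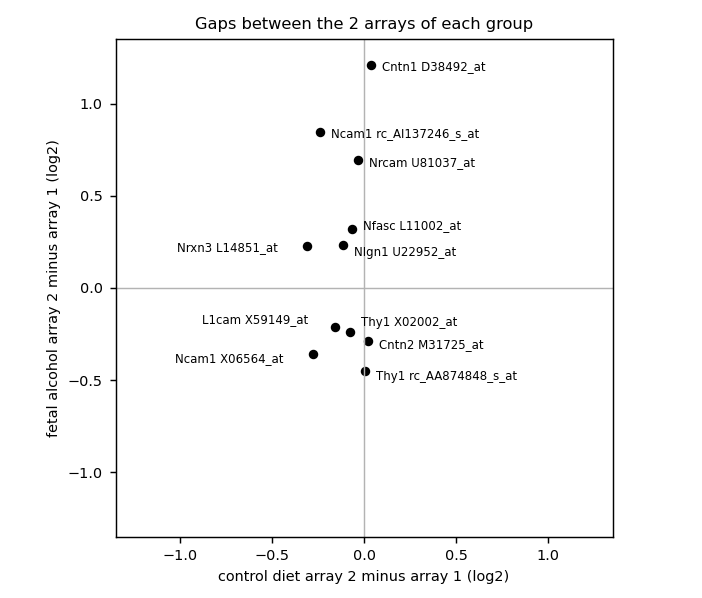
For each of the 11 tested probe sets, the vertical axis is fetal alcohol array 2 minus array 1 and the horizontal axis control diet array 2 minus array 1, both in log2 units on the same scale. Cntn1 reached 1.21 between the fetal alcohol arrays and 0.038 between the control diet arrays, and the widest gap between the control diet arrays was -0.31, for Nrxn3.

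Cntn1 had the widest range, and the probe sets most like it across the 5 arrays were sought by the root mean square difference of log2 values, each centred on its own mean. The closest 5 of 4378 were those of Copb1, a coat protein of Golgi vesicles, at 0.018, Hnrnpa2b1, an RNA-binding protein, at 0.029, Rab1a, a GTPase of vesicle transport, at 0.032, Pth1r, the parathyroid hormone receptor, at 0.058 and Ogt, which adds N-acetylglucosamine to proteins, at 0.072. The median over all of them was 0.47. None is an adhesion molecule of the lists used here. Copb1 measured 43.7 and 113 with fetal alcohol, 102 with the isocaloric diet, and 69.8 and 73.0 with the control diet. Like Cntn1, each of the 5 was lowest on fetal alcohol array 1 and highest on fetal alcohol array 2, which picking them by likeness made likely. With 5 arrays such a likeness is a description only.

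A wider list of 110 partners, ligands, modifying enzymes and relatives of the members was also read, of which 80 genes were on the array and 62, with 92 probe sets, passed the intensity filter. For fetal alcohol against control diet 0 of the 92 passed an adjusted p of 0.05, with 2 higher (2.17%, against 1.66% of all tested probe sets) and 5 lower (5.43%, against 3.95%) at an unadjusted p under 0.05. The fetal alcohol values lay wholly above the control diet values at 11 probe sets (12.0%, against 16.8% of all tested) and wholly below at 17 (18.5%, against 17.7%). The median log2 difference was -0.065, with 37 positive and 55 negative. Groups that also lay 1.5-fold or more apart numbered 2 higher and 5 lower, against 1.54% and 3.91% of all tested probe sets.

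Against the isocaloric diet 0 of the 92 passed, 1 was higher and 0 lower at an unadjusted p under 0.05, against 2.67% higher and 1.54% lower of all tested probe sets, and the median was 0.0068. For isocaloric against control diet 0 passed, 0 were higher and 7 lower (7.61%) at an unadjusted p under 0.05, and the median was -0.11. Over all tested probe sets this comparison leaned the same way, with 1.37% higher and 5.43% lower.

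The 5 lower probe sets belonged to Ptprs, a receptor phosphatase that binds proteoglycans, and to the proteoglycans Ncan, Gpc3, Sdc3 and Sdc4, 1 each. Neurocan, encoded by Ncan, is a chondroitin sulfate proteoglycan of brain matrix that binds L1 and NCAM. Its probe set AF060879_s_at measured 110 and 135 with fetal alcohol, 107 with the isocaloric diet, and 246 and 209 with the control diet, a log2 difference of fetal alcohol from control diet of -0.84 ± 0.24 (limma adjusted p = 0.582). Ptprs L19180_at measured 59.4 and 112 with fetal alcohol, 56.0 with the isocaloric diet, and 201 and 316 with the control diet, a difference of -1.51 ± 0.33 (adjusted p = 0.488). At both of these probe sets the isocaloric array was the lowest of the 5, so the fetal alcohol and isocaloric arrays together stood below the control diet arrays there. At Ncan M97161_at and Ptprs L19180_g_at it lay between the fetal alcohol arrays, and at Ptprs L19933_s_at it was again the lowest. Fetal alcohol array 1 was the highest at Ptprs L19180_g_at. Gpc3, a glypican held by a lipid anchor, had -0.80 ± 0.23 at rc_AA963857_at. Sdc3, the neuronal syndecan, had -0.69 ± 0.26 and Sdc4, a syndecan of focal adhesions, -0.59 ± 0.23 at S61868_at. The isocaloric array lay below both control diet arrays at these 3 probe sets too. Isocaloric minus control diet was -0.64 for Gpc3, -0.59 for Sdc3 and -0.58 for Sdc4. Both differences share the control diet arrays. Further probe sets for the same genes gave smaller differences of fetal alcohol from control diet, -0.44 for Ncan, -0.57 for Gpc3, -0.44 and -0.17 for Ptprs and -0.012 for Sdc4. Other proteoglycans of the wider list did not all lie lower. Differences were 0.15 for Gpc2, 0.088 for Sdc2, 0.24 and -0.12 for Sdc1 and 0.10 and -0.00022 for Ptprz1. They were -0.28 for Gpc1, -0.21 for Bcan, -0.21 for Vcan and -0.037 and -0.14 for Agrn. Among these, only Gpc1 had fetal alcohol values wholly below the control diet values.

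The 2 higher probe sets were those of Adgrl2, a latrophilin receptor of synapses, and Lin7b, a scaffold protein that joins the neurexin-binding Cask complex. Adgrl2 AF063102_g_at measured 180 and 228 with fetal alcohol, 115 with the isocaloric diet, and 140 and 82.0 with the control diet, a difference from control diet of 0.85 ± 0.29 (adjusted p = 0.748). Its other probe sets had 0.016 and -0.063, so the difference was seen at 1 of 3. Lin7b AF090133_at measured 125 and 106 with fetal alcohol, 44.8 with the isocaloric diet, and 47.7 and 64.2 with the control diet, a difference of 0.93 ± 0.24 (adjusted p = 0.573). At these 2 probe sets the fetal alcohol values exceeded those of the other 3 arrays, as at 8.45% of all tested probe sets. Lying above the control diet arrays was part of the rule that named them.

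**Figure D4:**
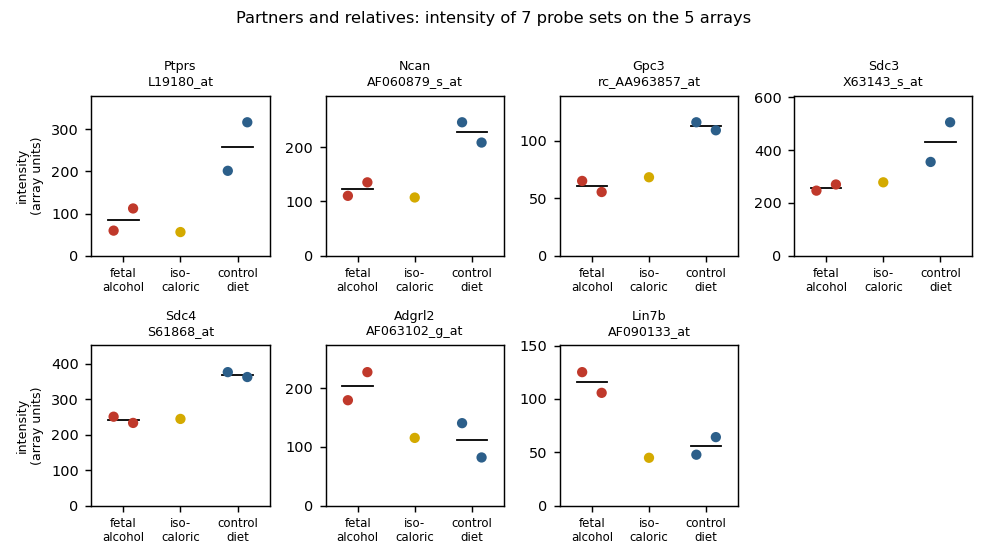
Intensity in array units, on axes that start at 0, of the 7 probe sets of the wider list whose fetal alcohol and control diet values did not overlap and differed by at least 1.5-fold; each point is 1 array and each black line a group mean. For Ptprs, Ncan, Gpc3, Sdc3 and Sdc4 the isocaloric array lay with the fetal alcohol arrays below the control diet arrays, and for Adgrl2 and Lin7b it lay below the fetal alcohol arrays.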

How the data were processed

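Each of the 5 samples was measured on 1 array with 8799 probe sets. The intensity values are those the authors deposited, on a linear scale; how they were computed and scaled is not stated by the labels or file headers. Their 2% trimmed means differed by a factor of 1.0002 at most between arrays, so the columns were used as deposited. The 59 control probe sets were left out. Intensities became log2(intensity + 10.6), the offset being the 20th percentile, and probe sets under the 40th percentile of the mean log2 value (an intensity of about 33.4) were not tested, which left 5244. A linear model per probe set covered the 5 arrays (limma 3.58.1 under R 4.3.3; lmFit, then eBayes with trend, 2-sided), with Benjamini-Hochberg adjustment over the 5244. There were 2 residual degrees of freedom and 6.30 from the prior. The single isocaloric array was assumed to vary like the others. The fit was run on simulated arrays with independent normal noise of equal spread in every group. This checks the code only, since the groups here differed in spread.

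Gene names came from the platform annotation, and symbols outside the 9 members were updated through the gene identifier, found for 6985 of 7006 probe sets with 1 symbol. All member probe sets are named. Of the wider list, the rule names probe sets past the threshold, then those without overlap between fetal alcohol and control diet and at least 1.5-fold apart, up to 5 in each direction. The members and lists were chosen with earlier results of these data known, so no set test was made. Batches of scanning could not be examined from what was used here. The ratio of 3' to 5' signal of the actin control probe sets, a measure of RNA quality, also differed between groups. It was 1.18 and 1.26 with fetal alcohol, 1.12 with the isocaloric diet, and 1.32 and 1.34 with the control diet. Both control diet arrays thus had a higher ratio than every fetal alcohol and isocaloric array. The part of RNA quality in the differences from control diet was not tested. Precision is limited by the number of arrays.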

Additional observations from a re-analysis of the deposited data

How the results depend on the processing

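No member passed an adjusted p of 0.05 under any alternative run for the members, in any of the 3 comparisons (the crossed pairing below was run for counts only). Signs were kept in 130 of 141 recomputed member differences of fetal alcohol from control diet, in 112 of 119 from the isocaloric diet and in 118 of 119 between the diets; 15 of the 19 changes came from leaving out 1 array. The median over the members ran from -0.18 to 0.036 with 1 array left out.

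Over all probe sets, 0 passed in each comparison. For fetal alcohol against control diet, 1 passed with quantile normalization, 9 with equal medians and 1 with the offset at the 40th percentile, and 0 to 25 with 1 array left out. Against the isocaloric diet 3 passed with quantile normalization, 3 with equal medians and 0 to 12 with 1 array left out. Between the diets 0 to 13 passed with 1 array left out. The highest counts came when a fetal alcohol array was dropped. In those fits the residual spread comes from the control diet pair alone, moderated by the prior over all tested probe sets. The cause of the changes in count was not tested.

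Same-numbered arrays gave a single correlation of deviations, -0.113, and 1 value does not settle whether numbers mark pairs. With the replicate block 8 passed for fetal alcohol against control diet, and with the crossed pairing as block, an alternative chosen after seeing the data, 21 passed. Dim probe sets, such as Nfasc U81035_s_at and U81036_s_at, lie close to the offset, which limits what their values can show.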
